A study of Homo sapiens with 24 samples.

Results

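The 34 genes described here encode proteins of the Fanconi anaemia pathway, of homologous recombination and of mismatch repair, together with the checkpoint kinases that act beside them. They were chosen by symbol from the 4 comparison tables of the study, 1 per cell line, and all 34 were found with an adjusted p in every table, of 39772 genes listed in any of them. The study exposed human neuroblastoma cell lines to GSK-J4, a cell-permeable inhibitor of the histone H3 lysine 27 demethylases KDM6A and KDM6B, at 1 µM for 72 hours, and sequenced polyadenylated RNA. Treated and untreated cultures of LAN5 and IMR5 (MYCN amplified, labelled sensitive), of SK-N-FI (MYCN wild type, labelled sensitive) and of SK-N-BE(2) (MYCN amplified, labelled resistant) gave 3 libraries per group and 24 in all. The labels name no other agent or engineered allele, and no group received a vehicle that the labels name. Each MYCN status and each response class is thus carried by 1 to 3 lines, and the resistant class by SK-N-BE(2) alone.

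Only the tables of comparisons, which hold no values per library, were used, so no standard deviation over libraries and no depth per library can be given. Summed over genes, the tables' means came to between 15458900 and 19445400 normalized counts. From each gene's mean and fold change a treated and an untreated level were derived, in normalized counts of that line's table. Fold changes in the tables had been pulled toward 0 by a prior, and this pull was removed so that lines could be set side by side. Every log2 change below is treated over untreated on that prior-removed scale, ± its standard error (3 libraries per group), and every adjusted p for a single line is that of the authors' deposited table (DESeq2 Wald test, Benjamini-Hochberg), with a call at under 0.05. The table read as SK-N-FI was assigned by the likeness of its short name and by elimination, and the mean of MYCN was 116 in it, against 11397 to 38907 in the authors' deposited tables of the 3 amplified lines. The direction treated over untreated is a reading too, since the tables do not state it, and it rests on BBC3 in the sensitive lines and on MT2A and SLC30A1 in SK-N-BE(2). Per 1000000 of each table's summed mean, the list of 12 adrenergic neuroblastoma markers summed to 3248, 1474, 2339 and 4699.8 in LAN5, IMR5, SK-N-FI and SK-N-BE(2). Within it TH was at 0 in IMR5 and SK-N-FI, STMN2 at 0.0692 in IMR5, and DBH at 3.88 in SK-N-BE(2). The 8 immune and endothelial markers summed to between 1.17 and 9.19. The 8 fibroblast and muscle markers summed to 94.2 to 280.4 in the sensitive lines and 2234 in SK-N-BE(2), where DCN and LUM made up most of the sum, at 739.6 and 1242, while COL1A2 was at 0.385 and ACTA2 at 2.56.

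Cells use these genes to finish and proofread DNA replication. When a replication fork meets a crosslink between the strands of DNA, the Fanconi core complex attaches ubiquitin to FANCD2 and FANCI, with UBE2T as the conjugating enzyme, and the crosslink is then cut out. The resulting break is resected and mended by homologous recombination, in which BRCA2, brought in by PALB2 and BRCA1, acts on the exposed single-stranded DNA. Mismatch repair removes misincorporated bases behind the fork, and ATR with CHEK1 slows the cell cycle while forks are stalled. Transcription of many of these genes rises as cells enter S phase, and E2F factors are known to act at a number of their promoters.

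Promoter windows were printed for 5 members to show the letters counted below: FANCA, FANCD2, MSH6 and XRCC2 are the members that were lower in all 3 sensitive lines and hold an E2F motif, and FANCE, called in opposite directions, holds none of the motifs searched. Windows of the other 7 members lower in all 3 lines hold no E2F letters, and MSH6 has further windows without them. Each window runs from 250 bases before to 50 bases after the annotated start, from RefSeq on GRCh38.p14, and is written 5′ to 3′ on the gene's strand with the E2F motif in capitals. FANCA lies at chr16:89816598-89816897 on the minus strand, FANCD2 at chr3:10026187-10026486 on the plus strand, MSH6 at chr2:47782895-47783194 on the plus strand, XRCC2 at chr7:152676092-152676391 on the minus strand and FANCE at chr6:35452088-35452387 on the plus strand.
FANCA: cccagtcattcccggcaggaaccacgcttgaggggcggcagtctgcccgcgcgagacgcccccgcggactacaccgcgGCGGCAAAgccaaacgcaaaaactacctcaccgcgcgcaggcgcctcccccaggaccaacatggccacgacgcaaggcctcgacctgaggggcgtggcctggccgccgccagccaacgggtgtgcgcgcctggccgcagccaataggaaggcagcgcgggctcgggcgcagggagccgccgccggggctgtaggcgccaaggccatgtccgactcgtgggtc
FANCD2: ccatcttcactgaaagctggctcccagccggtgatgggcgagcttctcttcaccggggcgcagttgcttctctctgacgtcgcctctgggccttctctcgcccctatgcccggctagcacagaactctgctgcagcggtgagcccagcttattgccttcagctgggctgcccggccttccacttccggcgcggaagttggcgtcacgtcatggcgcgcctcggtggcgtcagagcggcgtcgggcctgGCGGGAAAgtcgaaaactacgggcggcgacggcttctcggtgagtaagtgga
MSH6: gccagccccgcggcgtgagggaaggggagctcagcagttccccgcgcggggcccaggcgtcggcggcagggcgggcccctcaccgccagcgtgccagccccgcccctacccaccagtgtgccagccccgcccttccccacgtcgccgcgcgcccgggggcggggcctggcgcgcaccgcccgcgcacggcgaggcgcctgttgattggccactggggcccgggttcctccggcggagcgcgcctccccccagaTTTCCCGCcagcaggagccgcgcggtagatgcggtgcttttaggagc
XRCC2: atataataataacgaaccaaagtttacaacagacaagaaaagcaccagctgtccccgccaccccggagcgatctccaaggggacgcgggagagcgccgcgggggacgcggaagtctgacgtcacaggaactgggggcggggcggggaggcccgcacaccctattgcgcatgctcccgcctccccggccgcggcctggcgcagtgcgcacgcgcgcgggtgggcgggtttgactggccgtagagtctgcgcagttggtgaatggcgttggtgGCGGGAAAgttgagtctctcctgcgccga
FANCE: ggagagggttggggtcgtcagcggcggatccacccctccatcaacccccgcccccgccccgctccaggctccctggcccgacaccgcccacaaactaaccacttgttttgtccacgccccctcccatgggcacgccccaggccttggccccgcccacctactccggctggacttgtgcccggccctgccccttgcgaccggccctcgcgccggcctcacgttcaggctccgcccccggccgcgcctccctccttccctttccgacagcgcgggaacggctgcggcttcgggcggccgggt

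Windows were matched for 31 of the 34 members, and not for FANCI, RAD54B and NBN. The E2F letters TTTCCCGC, TTTGGCGC, TTTCGCGC or TTTGCCGC were found on either strand in windows of 7 of 31 member genes (22.6%), against 3.99% of all 27305 genes in the table. They were in 4 of 11 genes that fell in all 3 sensitive lines (36.4%) and in 3 of the 20 other matched members (15%). The NRF1 letters, GCGC, any base and then TGCGC, were in 7 of 31 members (22.6%), against 6.98% of all genes. They split as the E2F letters did, in 4 of the same 11 genes (36.4%) and 3 of the 20 others (15%). The CCAAT box, CCAAT, was in 16 of 31 members (51.6%) against 39.7%, and the cell cycle homology letters TTTGAA or TTCGAA in 4 of 31 (12.9%) against 19.5%. Between the 11 genes and the 20 others the CCAAT box split 7 (63.6%) to 9 (45%), and the cell cycle homology letters 2 (18.2%) to 2 (10%). These matches describe the letters of the windows and are not measured binding.

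Most of the genes were lower with GSK-J4 in the sensitive lines. No member passed the test in SK-N-BE(2), where few genes of any kind did, so that count is near the share of all genes. In LAN5 20 of 34 fell and 1 rose, against 19.2% and 22.5% of all 25753 genes tested there, and 38.9% and 28.2% of those with a mean of at least 100. In IMR5 18 fell and 5 rose, where all genes tested gave 21.6% lower and 22.6% higher, and those with a mean of at least 100 gave 35.7% and 34%. In SK-N-FI 25 fell and 1 rose, where all genes tested gave 14.8% lower and 16.8% higher, and those with a mean of at least 100 gave 24.1% and 25%. In SK-N-BE(2) 0 of 34 fell and 0 rose in the authors' deposited table (DESeq2), where 0.858% of the genes tested were lower and 1.62% higher, with 1.02% and 1.86% among genes whose mean was at least 100. There 3 members had an unadjusted p under 0.05. Over the 34 genes the median log2 change was -0.32 for LAN5, against 0.12 over all genes tested in that line. The medians of the members and of all genes were -0.22 and 0.02 for IMR5, -0.53 and 0.01 for SK-N-FI, and 0.02 and 0.00 for SK-N-BE(2). Genes of ordinary abundance were also shifted in LAN5, with a median of -0.09 over genes with a mean of at least 100. Relative to that shift 16 members were lower and 4 higher in LAN5.

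**Figure D1:**
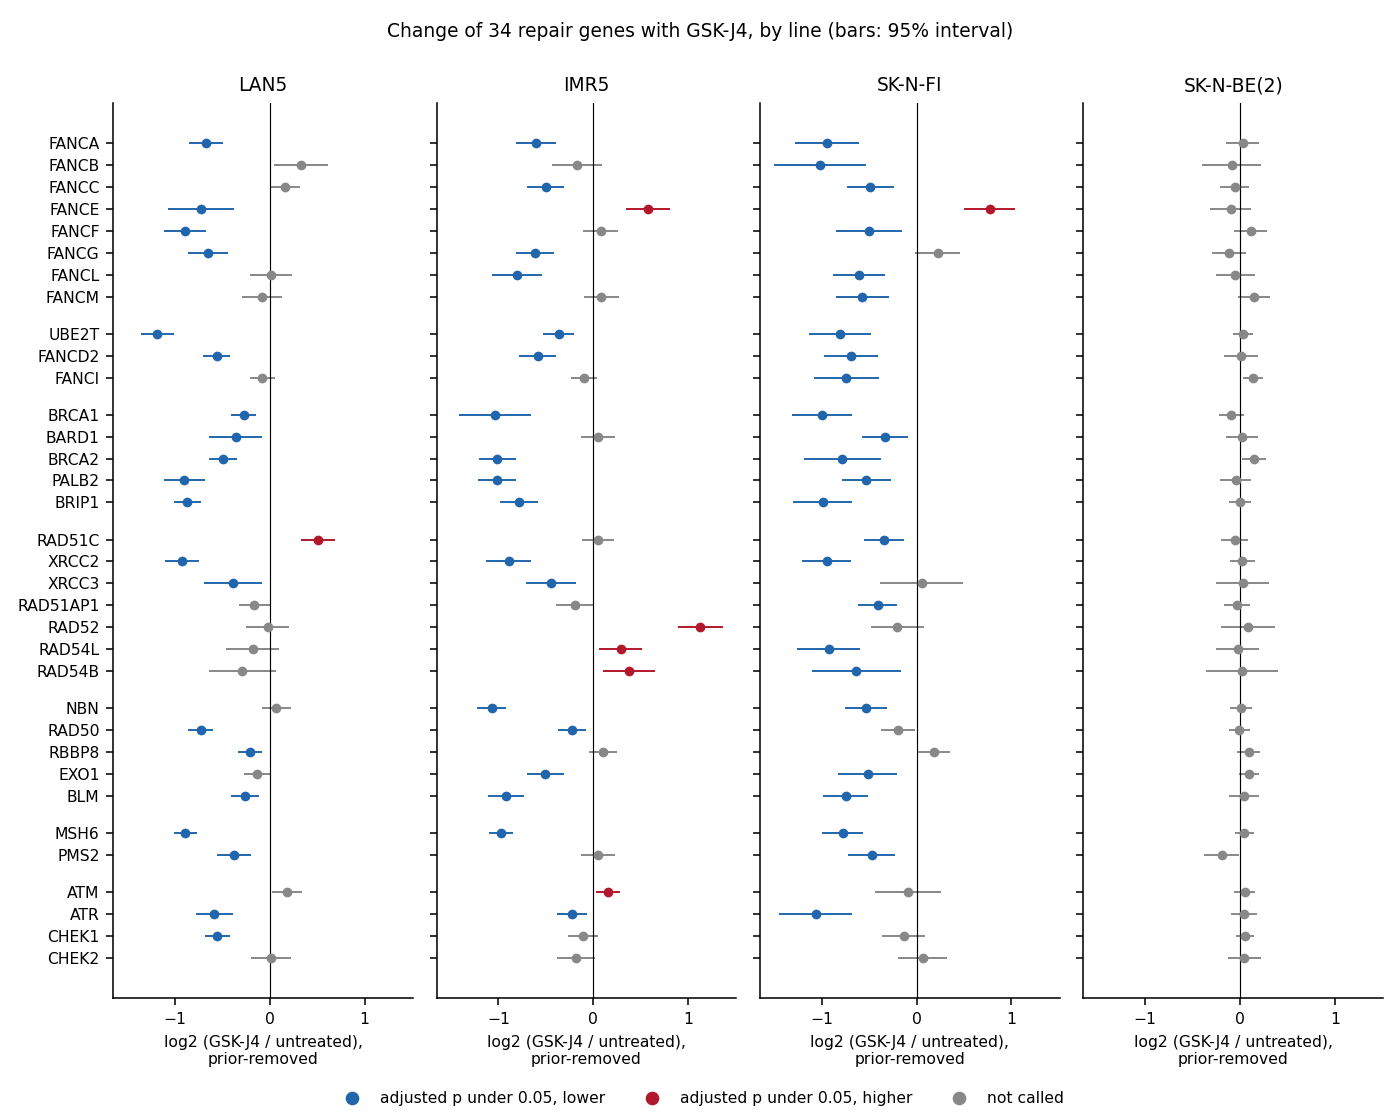
Log2 change with GSK-J4 (horizontal axis, prior removed, bars are 95% intervals) of each of the 34 genes in the 4 lines, grouped by role, blue where the gene passed the authors' test as lower, red as higher and grey where it did not pass. Most points lie left of 0 in LAN5, IMR5 and SK-N-FI, while all 34 lie near 0 in SK-N-BE(2).

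In all, 11 of the 34 genes fell in all 3 sensitive lines (32.4%), against 5.83% of the 18599 genes tested in all 3 and 10.4% of the 9202 with a mean of at least 100 in each. They were BRCA1, BRCA2, PALB2, BRIP1, XRCC2, FANCA, FANCD2, UBE2T, BLM, MSH6 and ATR. Another 10 fell in 2 of these lines without a call in the other, as did 10.4% of all genes and 16.2% of the more abundant ones, and 6 fell in 1 without a call in the other two, against 13.2% and 14%. RAD51C, RAD54L, RAD54B and FANCE were called in opposite directions in different lines, where 12.6% of all genes and 18.9% of the more abundant ones were. ATM and RAD52 rose in IMR5 without a fall in LAN5 or SK-N-FI, a class that held 30.7% of all genes and 33.4% of the more abundant ones. CHEK2 was not called in any of the 3 lines, against 27.2% and 7.04%. Proliferation markers moved with them. Of the 30 S phase markers 26 fell in LAN5, all 30 in IMR5, and 28 of them in SK-N-FI, but 1 in SK-N-BE(2), and the proliferation gene MKI67 changed by -3.41 ± 0.083, -1.82 ± 0.068, -2.37 ± 0.231 and 0.04 ± 0.0591 in these 4 lines. Fewer cycling cells and less RNA per cell cannot be told apart in bulk RNA, and the part of either in these counts was not tested.

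The BRCA1 and BRCA2 complexes were lower in every sensitive line, with 5 of 5 members called lower in LAN5 and SK-N-FI and 4 of 5 in IMR5. The share called lower across all the more abundant genes (mean 100 or above) was 38.9% in LAN5, 24.1% in SK-N-FI and 35.7% in IMR5. BRCA2, a mediator of recombination (chromosome 13, 32315474 to 32400266, GENCODE 29 on GRCh38), had 1348 normalized counts in treated and 1898 in untreated LAN5, 862 and 1739.9 in treated and untreated IMR5, and 876 and 1505 in treated and untreated SK-N-FI. The log2 changes were -0.49 ± 0.077, -1.01 ± 0.0995 and -0.78 ± 0.207. In SK-N-BE(2) treated cells had 1161 and untreated cells 1049.6, a change of 0.15 ± 0.0656 that was not called (adjusted p = 0.362 in the authors' deposited table). BRCA2 was thus lower with GSK-J4 in the 3 sensitive lines, and its value in the resistant line lay on the other side of 0.

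PALB2, which joins BRCA1 to BRCA2 (chromosome 16, 23603160 to 23641310), had 265 normalized counts in treated LAN5 against 495 in untreated LAN5 and 515 in treated IMR5 against 1039 in untreated IMR5, with log2 changes of -0.90 ± 0.109 and -1.01 ± 0.102. Its change was smaller in SK-N-FI, at -0.53 ± 0.131, and the mean of LAN5 and IMR5 minus SK-N-FI was -0.43 ± 0.151 (adjusted p = 0.0124, Wald test with Benjamini-Hochberg adjustment), a call lost at 0.01. BRIP1, a helicase that binds BRCA1 (chromosome 17, 61681266 to 61863521), fell in the 3 sensitive lines, at -0.87 ± 0.0738, -0.78 ± 0.102 and -0.99 ± 0.158. The resistant line had 1461 treated and 1460.2 untreated normalized counts of BRIP1, a change of 0.00 ± 0.0609. BRCA1 itself, a ubiquitin ligase and scaffold of recombination (chromosome 17, 43044295 to 43170245), had 2836 in treated and 5815 in untreated IMR5 but 2517 in treated and 3043 in untreated LAN5. Log2 changes of BRCA1 were -0.27 ± 0.0679 for LAN5, -1.04 ± 0.194 for IMR5 and -0.998 ± 0.16 for SK-N-FI, so the LAN5 change was the mildest of the 3. BARD1, the partner of BRCA1, fell in LAN5 (-0.36 ± 0.142) and SK-N-FI (-0.34 ± 0.124) and was 0.05 ± 0.0928 in IMR5, where it was not called. Its LAN5 call was lost when changes were taken relative to the LAN5 shift.

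UBE2T and FANCD2, of the step that marks FANCD2 with ubiquitin, fell in all 3 sensitive lines. UBE2T, the ubiquitin-conjugating enzyme, had 532 normalized counts in treated LAN5 and 1209.7 in untreated LAN5, 1454 and 1871 in treated and untreated IMR5, and 452 and 792 in treated and untreated SK-N-FI. The corresponding log2 changes were -1.18 ± 0.0884, -0.36 ± 0.0817 and -0.81 ± 0.166, the deepest fall being that of LAN5 (adjusted p = 2.01e-39 in the authors' deposited table). FANCD2, the main target of the ubiquitin step (chromosome 3, 10026414 to 10101930), fell in the 3 lines, with log2 changes of -0.56 ± 0.0746, -0.58 ± 0.0991 and -0.69 ± 0.146. FANCI, its partner, fell in SK-N-FI to 1577 normalized counts with treatment, against 2632 without (-0.74 ± 0.173). In LAN5 and IMR5 FANCI was not called, at -0.08 ± 0.0676 and -0.10 ± 0.0701. FANCD2 has near-identical pseudogene copies, so its counts are uncertain to that extent.

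Within the core complex 4 of 8 genes fell and none rose in LAN5, 4 fell and 1 rose in IMR5, and 6 fell and 1 rose in SK-N-FI. Among all genes with a mean of at least 100, 38.9%, 35.7% and 24.1% fell in these lines, so the counts of LAN5 and IMR5 lie near the share of all genes. FANCA, a scaffold member (chromosome 16, 89737549 to 89816657), was the 1 member of the 8 called lower in all 3, with log2 changes of -0.67 ± 0.0924, -0.60 ± 0.109 and -0.94 ± 0.173. FANCL, the ligase of the complex, fell in IMR5 (-0.80 ± 0.133) and SK-N-FI (-0.61 ± 0.141) and was 0.01 ± 0.113 in LAN5. FANCF, an adaptor of the complex, fell in LAN5 (-0.89 ± 0.113) and SK-N-FI (-0.50 ± 0.178) and was 0.08 ± 0.095 in IMR5. FANCG fell in LAN5 (-0.65 ± 0.106) and IMR5 (-0.62 ± 0.101) and was 0.22 ± 0.12 in SK-N-FI. FANCC fell in IMR5 (-0.50 ± 0.101) and SK-N-FI (-0.49 ± 0.128) and was 0.16 ± 0.0802 in LAN5. FANCB and FANCM, an anchor of the complex on DNA, fell in SK-N-FI (-1.02 ± 0.249 and -0.57 ± 0.144) and were not called in LAN5 or IMR5.

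FANCE, which links the core complex to FANCD2 (chromosome 6, 35452356 to 35467103), moved in opposite directions between lines. Treated LAN5 had 96.5 normalized counts and untreated LAN5 159.7, whereas treated IMR5 had 466 against 312 in untreated IMR5 and treated SK-N-FI had 385 against 226 in untreated SK-N-FI. FANCE thus fell in LAN5 (-0.73 ± 0.177) and rose in IMR5 (0.58 ± 0.118) and SK-N-FI (0.77 ± 0.138).

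The strand exchange genes, which act as a broken end finds and invades the matching duplex, included members that fell and members that rose. XRCC2, a recombination factor, had 1295 normalized counts in treated LAN5 and 2465 in untreated LAN5, 857 and 1592 in treated and untreated IMR5, and 842 and 1625 in treated and untreated SK-N-FI. Its log2 changes, -0.93 ± 0.0911, -0.89 ± 0.12 and -0.95 ± 0.131, lay within a standard error of each other, and in SK-N-BE(2) it was 0.02 ± 0.0667. RAD51C, another recombination factor, rose in LAN5 to 1503 normalized counts with treatment, against 1055 without (0.51 ± 0.0915), and fell in SK-N-FI to 748, against 950.3 without (-0.35 ± 0.108). In IMR5 it was not called, at 0.05 ± 0.0869. RAD52, an annealing protein, rose in IMR5 to 546 with treatment, against 249 without (1.13 ± 0.12), the largest rise of any member in any line. RAD52 was not called in LAN5 (-0.02 ± 0.116) or SK-N-FI (-0.21 ± 0.142).

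RAD54L and RAD54B, motor proteins that remodel DNA during strand exchange, rose in IMR5 (0.29 ± 0.116 and 0.37 ± 0.14) and fell in SK-N-FI (-0.93 ± 0.168 and -0.64 ± 0.239), with no call in LAN5 (-0.18 ± 0.143 and -0.29 ± 0.181). The IMR5 calls of both were lost at an adjusted p of 0.01, and RAD54B also lost its SK-N-FI call there. RAD54B shares 59.1% of its exon length on the same strand with FSBP, which makes its counts uncertain. RAD51AP1, which stimulates strand exchange, fell in SK-N-FI (-0.41 ± 0.107) and was not called in LAN5 or IMR5, at -0.16 ± 0.0834 and -0.19 ± 0.103. XRCC3 fell in LAN5 and IMR5 at -0.39 ± 0.156 and -0.44 ± 0.133, and was 0.06 ± 0.223 in SK-N-FI. The XRCC3 exons overlap those of KLC1 on the other strand over 76.7% of their length, and the use of strand in counting is not given in the sources used here. The LAN5 call of XRCC3 was lost relative to the LAN5 shift.

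Genes that sense breaks and open their ends differed by line. NBN, which senses breaks with RAD50, had 1918 normalized counts in treated IMR5 and 4022 in untreated IMR5, a change of -1.07 ± 0.0776. NBN also fell in SK-N-FI (-0.53 ± 0.112), where treated cells had 759 and untreated cells 1098. In LAN5 treated cells had 1069.6 and untreated cells 1019, a change of 0.07 ± 0.0777 that was not called. RAD50 fell further in LAN5 (-0.73 ± 0.0679) than in IMR5 (-0.22 ± 0.0738), a difference of -0.50 ± 0.1 that passed the test (adjusted p = 1.95e-06, Wald test with Benjamini-Hochberg adjustment), although 79.7% of its exon length is shared on the same strand with another annotated gene. In SK-N-FI RAD50 was -0.20 ± 0.0895, not called. BLM, a helicase that unwinds DNA, fell in all 3 sensitive lines, at -0.26 ± 0.0752, -0.92 ± 0.0969 and -0.75 ± 0.123. The LAN5 call of BLM was lost relative to the LAN5 shift. EXO1, an exonuclease of resection and mismatch repair, fell in IMR5 (-0.50 ± 0.101) and SK-N-FI (-0.52 ± 0.161) and was -0.14 ± 0.0716 in LAN5. RBBP8, which encodes the resection factor CtIP, fell slightly in LAN5 (-0.21 ± 0.065), a call that was also lost relative to the LAN5 shift, and was not called in IMR5 (0.10 ± 0.0738) or SK-N-FI (0.18 ± 0.0862).

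MSH6, a subunit of the complex that finds mismatches (chromosome 2, 47695530 to 47810101), fell in all 3 sensitive lines with the smallest adjusted p of any member in LAN5 and IMR5. Treated cells had 2168, 3353 and 1761 normalized counts in LAN5, IMR5 and SK-N-FI, and untreated cells 4016, 6565 and 3025 in the same order of lines. Log2 changes were -0.89 ± 0.0621 (adjusted p = 6.1e-45), -0.97 ± 0.063 (1.73e-51) and -0.78 ± 0.112 (9.07e-11), with p-values from the authors' deposited table of each line. In SK-N-BE(2) MSH6 had 3149.7 treated and 3047 untreated normalized counts, a change of 0.05 ± 0.0524 with an adjusted p of 0.882 in the authors' deposited table. PMS2, an endonuclease of the same pathway with near-identical pseudogenes, fell in LAN5 (-0.38 ± 0.0904) and SK-N-FI (-0.47 ± 0.128) and not in IMR5 by the test (0.05 ± 0.0909).

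Among the checkpoint kinases ATR, the sensor of stalled forks (chromosome 3, 142449235 to 142578826), fell in all 3 sensitive lines, at -0.58 ± 0.0996, -0.22 ± 0.0812 and -1.07 ± 0.196, with 592 normalized counts in treated and 1239 in untreated SK-N-FI. CHEK1, its effector, fell in LAN5 (-0.55 ± 0.0672) and was not called in IMR5 (-0.11 ± 0.0786) or SK-N-FI (-0.13 ± 0.115). ATM, the kinase of the break response, was 0.18 ± 0.0828 in LAN5 and 0.15 ± 0.0648 in IMR5, where it was called higher, and -0.09 ± 0.178 in SK-N-FI. The IMR5 call was lost when p-values were adjusted over every gene. CHEK2, the partner of ATM, stayed between -0.18 ± 0.101 in IMR5 and 0.07 ± 0.132 in SK-N-FI, with no call. CHEK2 counts are uncertain because of near-identical pseudogene copies.

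**Figure D2:**
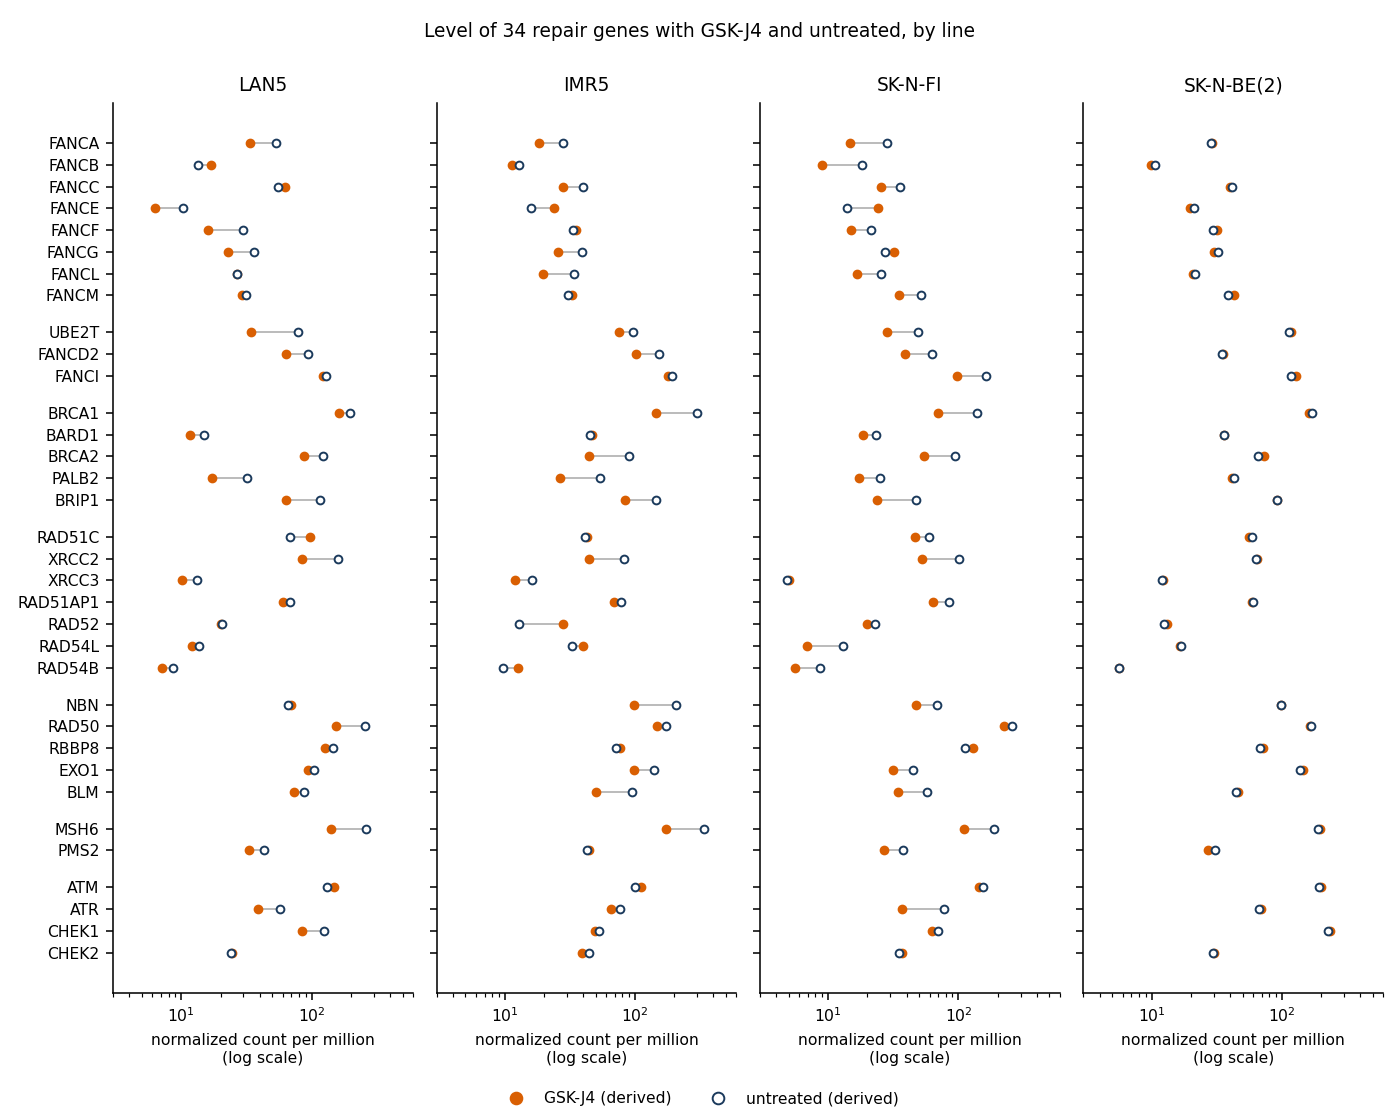
Derived treated and untreated levels of the 34 genes, per 1000000 of each line's summed mean (log axis), for the 4 lines; filled orange points are treated and open points untreated, joined by a line. The points lie apart for genes such as MSH6, XRCC2 and BRCA2 in the sensitive lines and nearly coincide in SK-N-BE(2).

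SK-N-BE(2) served as the resistant line. Its 34 log2 changes ran from -0.19 in PMS2 to 0.15 in FANCM, 22 above and 12 below 0. The 3 members with an unadjusted p under 0.05 were BRCA2 and FANCI, higher, and PMS2, lower, and the smallest adjusted p was 0.217, for FANCI, in the authors' deposited table. A Wald test on the prior-removed values with Benjamini-Hochberg adjustment called 0 of the 34. Removal of the prior leaves the ratio of fold change to standard error as it was, so this is not separate support. The 95% intervals of the fold lay between 0.76 for FANCB and 1.32 for RAD54B, so changes beyond these bounds fall outside every member's interval. The Wald statistics of this table did not equal fold change over standard error as in the other tables, so its prior-removed values and the differences from it are less certain.

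Effects were then compared directly between lines, for the 32 members whose mean reached 100 in every table, by a two-sided Wald test adjusted over the 8969 genes that did so; RAD54B (90.2 in SK-N-BE(2)) and XRCC3 (78.7 in SK-N-FI) were not tested. The mean of the 3 sensitive lines was lower than SK-N-BE(2) for 21 members and higher for 1, where 32.7% and 26.4% of all genes tested were. The largest differences were -0.95 ± 0.0941 for XRCC2 (adjusted p = 1.79e-22, Wald test with Benjamini-Hochberg adjustment), -0.93 ± 0.0709 for MSH6 (1.89e-37), -0.91 ± 0.104 for BRCA2 and -0.88 ± 0.0909 for BRIP1. FANCE alone was higher, at 0.31 ± 0.138 (adjusted p = 0.0458, Wald test), a call that was lost at an adjusted p of 0.01, and with a minimum mean of 200 FANCE was not tested. The difference for FANCE averages a fall in LAN5 with a rise in the other two sensitive lines. SK-N-BE(2) is 1 line, so resistance and the line cannot be told apart.

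LAN5 and IMR5, both MYCN-amplified and sensitive, differed for 20 of the 32 members, 11 with a more negative change in LAN5 and 9 in IMR5, shares of 34.4% and 28.1% where all genes tested gave 33.6% and 27.3%. The number of members that differed was thus near that of all genes. FANCE differed by -1.31 ± 0.213 (adjusted p = 4.99e-09, Wald test), RAD52 by -1.15 ± 0.167 and FANCF by -0.97 ± 0.147. UBE2T fell further in LAN5, with a difference of -0.82 ± 0.12. In the other direction NBN differed by 1.14 ± 0.11 (adjusted p = 9.08e-24, Wald test), FANCL by 0.82 ± 0.175 and BRCA1 by 0.76 ± 0.205, each with the more negative change in IMR5. For MSH6 and BRIP1 the differences, 0.08 ± 0.0885 and -0.09 ± 0.126, did not pass the test.

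The mean of LAN5 and IMR5 minus SK-N-FI was lower for 5 members (15.6%) and higher for 7 (21.9%), where 28.4% and 18.9% of all genes tested were. Here 1 line stands for the MYCN wild type, so MYCN status and the line cannot be told apart. Relative to each line's median change the split was 3 lower and 10 higher. FANCG (-0.86 ± 0.141) and FANCE (-0.84 ± 0.174) were lower. FANCB (1.10 ± 0.268), RAD54L (0.98 ± 0.191), RAD52 (0.76 ± 0.165), ATR (0.66 ± 0.206) and FANCI (0.65 ± 0.179) were higher, so SK-N-FI had the more negative change in each. RAD52 was not called in SK-N-FI itself.

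**Figure D3:**
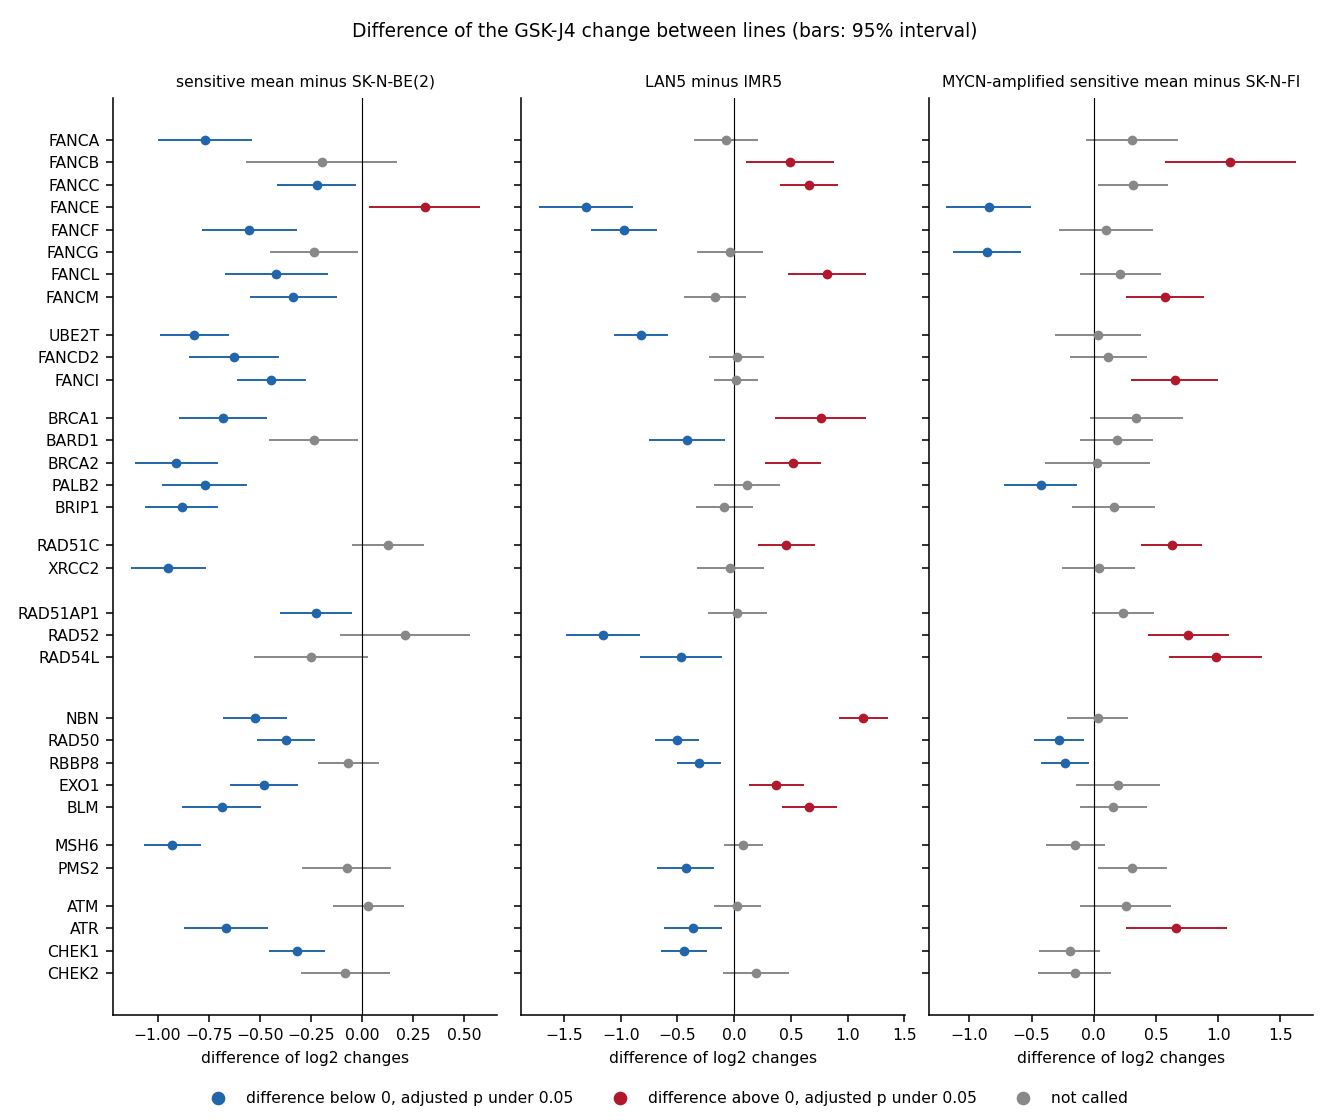
Differences in log2 change between lines for the 32 tested members (sensitive mean minus SK-N-BE(2), LAN5 minus IMR5, and MYCN-amplified sensitive mean minus SK-N-FI), with 95% intervals, blue for calls below 0, red for calls above 0 and grey for no call. The left panel is mostly left of 0, with XRCC2 and MSH6 at its left end, and the other panels hold points on both sides.

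Across lines the untreated levels are a description, because each table was normalized on its own. IMR5 had the highest untreated level of 17 members, LAN5 of 7, SK-N-FI of 6 and SK-N-BE(2) of 4, and SK-N-BE(2) had the lowest of 13. FANCD2 spanned the widest range of any member, from the lowest to the highest line by 4.41 times. CHEK1 stood at 225 per 1000000 in untreated SK-N-BE(2) and 53 in untreated IMR5, a ratio of 4.24. Per kilobase of exon, UBE2T was at 47.4 per 1000000 in untreated LAN5, 58.2 in untreated IMR5, 29.8 in untreated SK-N-FI and 69 in untreated SK-N-BE(2), the highest of the members in 3 of these lines, and RAD54B was lowest in 3.

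Other repair genes were counted beside the members, against 38.9%, 35.7% and 24.1% lower and 28.2%, 34% and 25% higher among all genes whose mean reached 100, for LAN5, IMR5 and SK-N-FI in that order. Of 41 other recombination genes 20 fell and 5 rose in LAN5, 21 fell and 4 rose in IMR5, and 17 fell and 4 rose in SK-N-FI, with 0 of 39 called in SK-N-BE(2) by the authors' DESeq2 test, where 3 had an unadjusted p under 0.05. Among those with the largest change in a line, RMI2 fell in LAN5 (-1.10 ± 0.125), BRCC3, a deubiquitinase of the BRCA1-A complex, in IMR5 (-1.76 ± 0.109) and CLSPN, a mediator of ATR, in SK-N-FI (-0.96 ± 0.145). SWI5 (0.96 ± 0.191) and C17orf53 (0.85 ± 0.119), also among them, rose in LAN5. In 15 other Fanconi genes 7 fell and 2 rose in LAN5 and in IMR5, while 4 fell and 2 rose in SK-N-FI. FAAP100 fell in LAN5 (-0.82 ± 0.105) and SK-N-FI (-0.63 ± 0.147), while MAD2L2 rose in SK-N-FI (0.58 ± 0.15). Of 16 other mismatch repair genes 11 fell in each sensitive line and 2, 1 and 1 rose, with PCNA, the replication clamp, at -0.39 ± 0.0643 for LAN5, -1.36 ± 0.099 for IMR5 and -1.13 ± 0.151 in SK-N-FI. POLD4 rose in LAN5 (1.38 ± 0.473) and IMR5 (1.48 ± 0.607), at low means of 18.8 and 10.96.

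Of 20 end joining genes 9, 13 and 7 fell and 2, 1 and 1 rose in LAN5, IMR5 and SK-N-FI. H2AFX, a histone variant phosphorylated at breaks, was the 1 end joining gene called in SK-N-BE(2), lower at -0.23 ± 0.07, beside -1.88 ± 0.0931, -0.84 ± 0.217 and -1.86 ± 0.132 in those 3 lines. C20orf196 rose in SK-N-FI (0.95 ± 0.256). Of 32 excision repair genes 18, 13 and 11 fell and 5, 7 and 4 rose in the sensitive lines, and the glycosylase UNG was at -2.19 ± 0.0772, -1.49 ± 0.0761 and -0.79 ± 0.116. DDB2, of the same list, rose in LAN5 (1.85 ± 0.154). Of 25 G2 and M phase markers 24, 22 and 21 fell and 0, 1 and 0 rose. Of 20 p53 targets 19, 17 and 8 rose and 0, 1 and 3 fell. Some genes stand in more than 1 of these lists, as PCNA, UNG, CLSPN and USP1 also do in the S phase list. Over the 34 members the log2 changes of LAN5 and IMR5 correlated at Pearson 0.27 (Spearman 0.26), LAN5 and SK-N-FI at 0.09, and IMR5 and SK-N-FI at 0.44, beside 0.47, 0.40 and 0.46 over 8969 genes. Genes are not independent, and these are descriptions across genes.

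**Figure D4:**
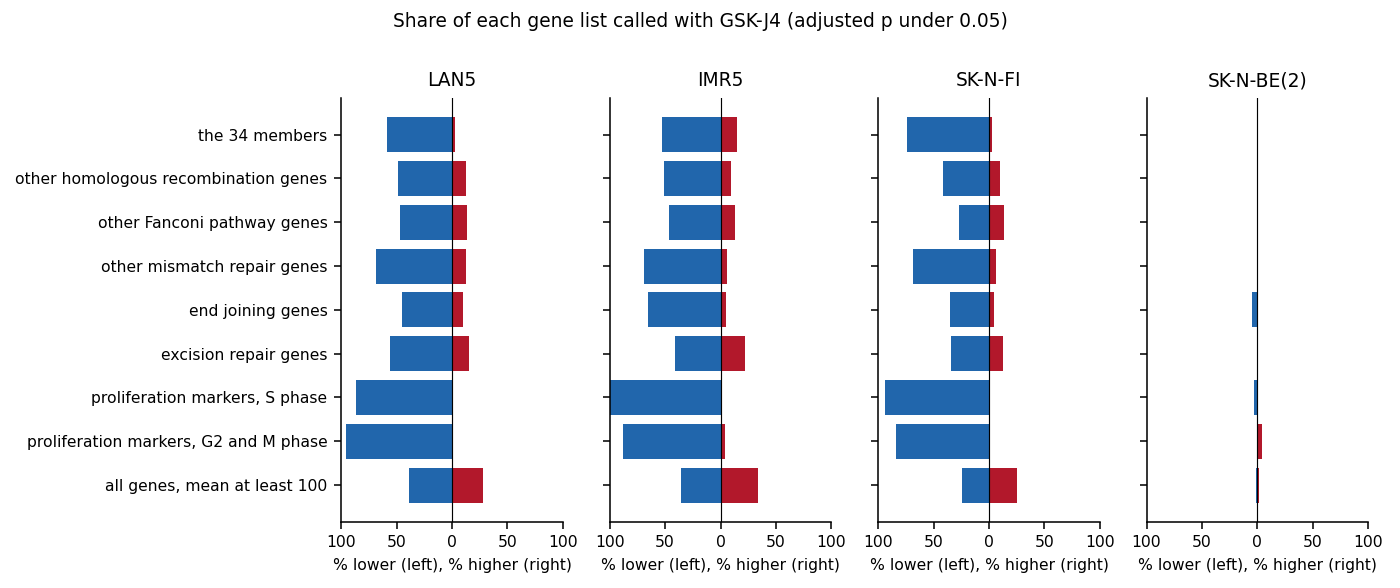
Share of each gene list called lower (left) and higher (right) in the 4 lines, in percent of genes tested in the list. Every gene list drawn, other than all genes in SK-N-FI, has more lower than higher calls in the 3 sensitive lines, and the S phase and G2 and M phase markers reach further to the lower side than the 34 genes, all genes with a mean of at least 100 are split more evenly, and SK-N-BE(2) has few calls in any list.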

How the data were processed

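Polyadenylated RNA of 24 libraries (8 groups of 3) was sequenced after a stranded library kit, per the labels' protocols. The submitters' processing notes name FastQC, STAR, DESeq2 and hg38 without versions; the counter, the annotation and whether counting used strand are not stated there. No label says that replicates came from separate cultures, so p-values measure the spread between libraries, possibly technical. Per the file headers, 1 table per line gives a mean normalized count over its libraries, a signal scaled by the authors for each table alone. The tables also hold a deposited log2 fold change with its error, a Wald statistic, which is a score deposited by the authors, and the authors' own raw and adjusted p-value. There were 0 unused columns of values per sample.

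The prior was removed by taking its width as 2 times the largest deposited standard error and solving for the unshrunken log2 value. Of the pair of solutions that with the smaller error was used at means over the peak of a running median of the error (501 genes ordered by mean), and the other at lower means. In SK-N-BE(2) the peak lay at a mean of 134, and its Wald statistics differed from fold change over standard error by more than 0.0001 for 19488 genes. Treated and untreated levels were derived from the mean and that fold change, assuming 3 libraries each, and set per 1000000 of the table's summed mean. Differences between lines used a two-sided Wald test with Benjamini-Hochberg adjustment over the 8969 genes whose mean reached 100 in every table, tested on simulated data beforehand. The simulated folds were shrunken by the same prior that was then removed, so they cannot show whether the assumed prior is right. The design foresaw tables without values per library, and no count model could be fitted. Gene positions came from GENCODE 29 on GRCh38 and promoter windows from RefSeq on GRCh38.p14. Python 3.11.15, pandas 2.3.3, NumPy 2.4.6, SciPy 1.17.1 and matplotlib 3.10.9 were used. All 34 members were named; other genes were named as checks of direction, as regulators of proliferation, as cell type markers given for their level (chosen after their values were seen), or as the up to 3 called genes of a list with the largest deposited change in a line. Members and lists were chosen with earlier results of these data known. The alternatives tried were another threshold, adjustment over other gene sets, other minimum means and deposited instead of prior-removed values. Centring on each line's median over genes with a mean of at least 100, and other scalings of levels, were also tried.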

Additional observations from a re-analysis of the deposited data

Results flagged for a closer look

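The effect of GSK-J4 differed between lines, by the two-sided Wald test with Benjamini-Hochberg adjustment, for 22 of 32 members between the sensitive lines and SK-N-BE(2), for 20 between LAN5 and IMR5, and for 12 between the MYCN-amplified sensitive lines and SK-N-FI. Over all genes tested 32.7% were lower and 26.4% higher in the first of these comparisons, 33.6% and 27.3% in that of LAN5 with IMR5, and 28.4% and 18.9% in that with SK-N-FI. The members that differed between LAN5 and IMR5 (34.4% lower, 28.1% higher) were near the share of all genes, and those that differed from SK-N-FI (15.6% lower, 21.9% higher) were fewer in all.

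RAD51C, RAD54L and FANCE were called in opposite directions in different lines and also differed in the tests between lines. For RAD51C the difference was 0.46 ± 0.126 in LAN5 minus IMR5 and 0.63 ± 0.125 in the MYCN-amplified sensitive mean minus SK-N-FI. RAD54L differed by -0.47 ± 0.184 and 0.98 ± 0.191 in these comparisons. Its LAN5 minus IMR5 call was lost after centring on each line's median over genes with a mean of at least 100. FANCE differed by 0.31 ± 0.138 between the sensitive mean and SK-N-BE(2), by -1.31 ± 0.213 between LAN5 and IMR5, and by -0.84 ± 0.174 between the MYCN-amplified sensitive mean and SK-N-FI. RAD54B was also called in opposite directions, but its mean was under 100 in SK-N-BE(2), so its differences were not tested.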

How the results depend on the processing

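Of the values for single members in single lines, 654 kept their direction and side of the threshold over the alternatives, 15 lost a call, 5 gained one and 4 changed sign; of the differences between lines 446 kept both, 15 lost a call, 7 gained one and 3 changed sign. These totals include settings that could change little. In single lines prior removal keeps the ratio of change to error, so it nearly repeats the adjustment over every gene. A threshold of 0.01 cannot alter a value that was not called. Changes of sign were of uncalled values. Centring was on each line's median over genes with a mean of at least 100. After centring, RAD52 was 0.0657, FANCI 0.00661 and FANCM 0.00489 in LAN5, and BRIP1 was -0.00119 in SK-N-BE(2). In LAN5 minus IMR5 XRCC2 was then 0.0352 and FANCG 0.0341. With deposited values BRCA2 was -0.00876 in the MYCN-amplified sensitive mean minus SK-N-FI. The 1 higher call of LAN5 became 3 over genes with a mean of at least 100 only and 4 after centring. The 5 higher calls of IMR5 became 2 at a threshold of 0.01. For the sensitive mean minus SK-N-BE(2) the 1 higher call became 0 with a mean of at least 200, where FANCE was not tested, 2 with deposited fold changes and 0 at 0.01. For the MYCN-amplified sensitive mean minus SK-N-FI the 5 lower calls became 3 after centring and 2 at 0.01. SK-N-FI had the highest untreated level of 3 members, in place of 6, when the 100 genes of highest mean were left out of the sum. Where not stated, the cause was not tested. No paired analysis was possible because the tables hold no value per library, and leaving out replicates was not run for the same reason. Depth per library is unknown, so its limit on precision cannot be given.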

Other observations

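E2F and RB family genes, which govern entry into S phase, were counted in 1 list of 19 with TFDP and LIN genes, MYBL2 and FOXM1. Of the 19, 12, 11 and 7 fell in LAN5, IMR5 and SK-N-FI and 5, 3 and 5 rose. Among all genes with a mean of at least 100, 38.9%, 35.7% and 24.1% fell and 28.2%, 34% and 25% rose in these lines. E2F1 changed by -1.28 ± 0.0811 for LAN5, -0.86 ± 0.0882 for IMR5 and -0.24 ± 0.142 for SK-N-FI, where it was not called. E2F8, a repressor of the family, fell in all 3, at -1.80 ± 0.174, -0.56 ± 0.107 and -2.11 ± 0.192. In contrast E2F7 rose in LAN5 (1.45 ± 0.0999) and E2F5 in SK-N-FI (0.77 ± 0.129).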
